A study of Orestias ascotanensis with 42 samples.

Results

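A set of 100 genes of the Andean killifish Orestias ascotanensis was examined that had lower levels in summer than in winter in muscle and nearly equal levels in both seasons in gills and skin. The members were chosen by measured values. Counts were brought to a common library total (CPM) with TMM factors, which adjust for RNA composition, over all 42 libraries. A gene had to average 5 to 200 CPM in each tissue, its largest tissue mean had to be under 4 times its smallest, and its seasonal difference of mean log2(CPM + 1) had to be under 0.2 in size in gills and in skin. Of 21024 genes counted, 8067 met the conditions on level and ratio, and 2719 of these were also flat in gills and skin. These were ranked in muscle by t, the winter minus summer difference of mean log2(CPM + 1) divided by its standard error, and the 100 with the largest t were taken. The low summer level in muscle and the flat levels in gills and skin are therefore what selected the genes and are given below as a description.

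The libraries came from wild fish of the Ascotán salt pan at 3740 m, with 7 fish netted in winter (July 2019) and 7 others in summer (January 2020). Gills, skin and muscle of each fish gave 1 poly-A RNA library each, so that the 6 groups held 7 libraries apiece. No fish was treated and no genotype, age or sex is given; season and collection year cannot be told apart. Muscle in a fish is mostly contractile fibre and is the largest reserve of protein in the body. Gills exchange gas, salts and acid with the water, and skin is a barrier of epithelium, mucous cells and scales that lies over the trunk muscle. A gene at similar levels in all 3 is usually one that many cell types use, and such genes need not be regulated alike in each tissue. The table gives gene identifiers without names, no name or function is therefore assigned to any gene here, and the pathway lists and cell type markers laid down for this work could not be matched. The tissue labels could not be checked against defining marker genes for the same reason. Identifiers are printed for the genes ranked 1 and 2, and the others are given by their rank.

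The shallowest library, muscle summer 4, held 6074371 counts, the next, muscle summer 6, 28009075, and the deepest, muscle summer 5, 154396513. In muscle summer 4 the members had 12 counts at the least and 71 at the median, against a lowest count of 52 in any other muscle library and 108 in gills and skin. Muscle summer 3, 5, 6 and 7 stood close together: the median absolute deviation of the log2 count ratio was 0.08995 to 0.137 in their 6 pairs and 0.414 to 0.747 in the other 15 pairs of summer muscle. Whether these 4 are separate samples is not settled by the counts. The edgeR counts, the median and named-gene fold changes and the ranking are therefore also given with the 4 averaged into 1 sample. Group means, SDs, counts of genes without overlap and correlations are given with all 7 summer libraries only. Skin summer 3 and 4 also stood apart: over the 8067 genes that met the conditions on level and ratio, their mean log2(CPM + 1) was 4.41 and 4.30, against 4.61 to 4.67 in the other 12 skin libraries. The seasonal differences in skin, the edgeR counts that use skin and the ranking are given with and without them. Other values for skin include them. By the same measure muscle summer 4 also stood apart in muscle, at 4.17, where the next lowest muscle library, muscle summer 6, was at 4.47. The number of members called lower in muscle, their median fold change and the ranking are also given without muscle summer 4. Group means, SDs and correlations for muscle include it. In 4 libraries, muscle winter 4 among them, the season tag differs from the season in the title, and the title was followed. Since 12 of 126 pairs of libraries within groups had a deviation under 0.15, and nothing beyond the fish number describes how the samples were handled, the p-values measure the spread between these libraries.

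The members were expressed at moderate levels in every group. Their mean CPM had a median of 29.6 over the 100 genes in winter gills and 28.1 in summer gills, 30.2 and 30.4 in winter and summer skin, and 33.1 in winter muscle against 21.1 in summer muscle. Individual genes averaged from 7.22 to 187 CPM in winter gills, from 7.60 to 182 in winter skin and from 8.14 to 219 in winter muscle. CPM is not corrected for transcript length, so a higher value means more counts and not more molecules. Summarised per library, the genes differed between seasons mainly in muscle. The rule chose them for this, so the gap between seasons in muscle follows in part from the choice. The mean of log2(CPM + 1) over the 100 genes was 5.09 ± 0.22 (SD, n = 7) in winter muscle, with a lowest value of 4.78, a median of 5.18 and a highest of 5.39. In summer muscle it was 4.37 ± 0.12 (SD, n = 7), from 4.14 through a median of 4.39 to 4.50, so the seasons did not overlap. In gills it was 5.00 ± 0.10 in winter and 4.98 ± 0.09 in summer, and in skin 5.08 ± 0.18 and 5.05 ± 0.10 (SD, n = 7 each), with overlapping libraries in both tissues. Over the 2619 other genes that met the conditions, the muscle libraries overlapped, at 4.38 to 4.52 in winter and 4.02 to 4.46 in summer. In these bulk libraries a lower value can come from fewer cells of a type or from less RNA per cell, and these cannot be told apart.

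**Figure D1:**
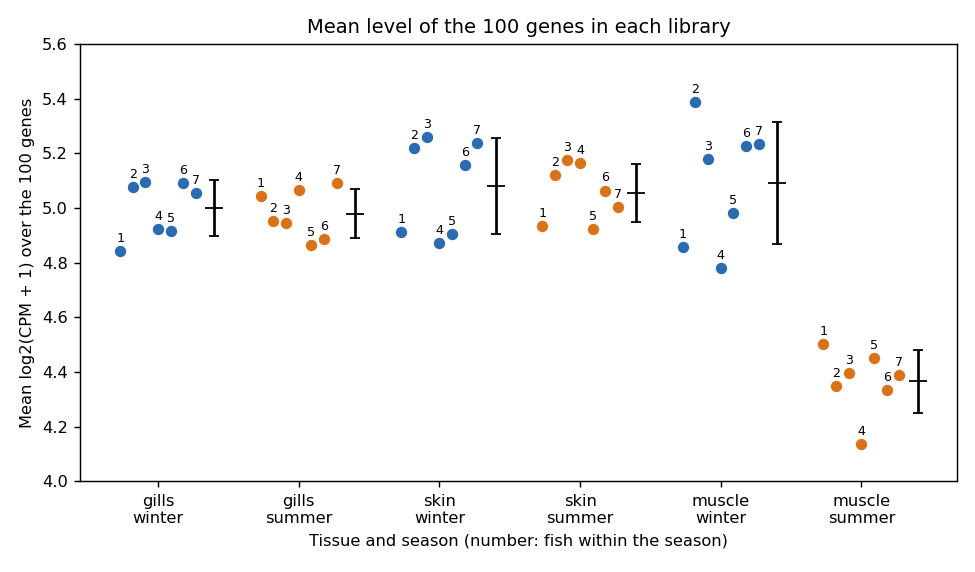
Mean log2(CPM + 1) of the 100 genes in each of the 42 libraries (vertical axis), by tissue and season (horizontal axis, blue winter and orange summer), with the fish number above each point and the group mean ± SD as a black bar (n = 7). The 7 summer muscle libraries lie between 4.14 and 4.50, below the lowest winter muscle library at 4.78, while gills and skin overlap between seasons.

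The size of the difference in muscle was moderate for most members. The ratio of the winter to the summer mean had a median of 1.67 over the genes and ran from 1.21 to 3.40, which corresponds to summer levels lower by 39.98% at the median, 17.4% at the least and 70.6% at the most. It was at least 2 in 23 genes, from 1.5 to below 2 in 44 and under 1.5 in 33. The ranking by t favours a difference that is steady between fish over one that is large, and several of the largest differences stood low in the order. In 37 of the 100 genes every summer muscle library lay below every winter muscle library, a pattern that 1.75% of the 17181 genes tested in muscle showed. Among the 2619 other genes that met the conditions, 14 showed it. The median of the winter fish was above all 7 summer fish in 98 members and above 6 of 7 in the other 2 members. The rule chose the genes for this contrast, so these shares are not a result about them.

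**Figure D2:**
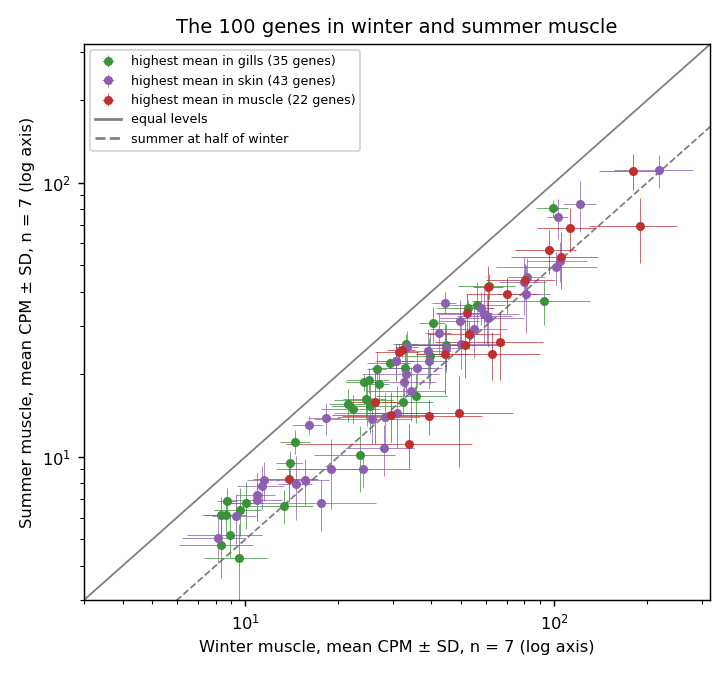
Mean CPM ± SD (n = 7) of the 100 genes in winter muscle (horizontal, log axis) and summer muscle (vertical, log axis), coloured by the tissue in which the gene's mean over both seasons is highest. The solid line marks equal levels and the dashed line a winter level 2 times the summer level; every gene lies below the solid line and 23 lie on or below the dashed one.

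The gene ranked 1, OAV3G000004693, had the most regular difference. In winter muscle it was at 49.8 CPM in the lowest fish, 56.9 at the median and 66.9 in the highest. In summer muscle the same values were 29.2, 33.9 and 44.3, so that no summer fish reached the lowest winter fish. The means were 57.8 ± 5.96 and 35.0 ± 4.89 CPM (SD, n = 7), and the adjusted p of edgeR was 0.00851 for a log2 fold change of -0.68 ± 0.12 (SE). In gills it was at 44.8 ± 3.63 CPM in winter and 40.7 ± 2.96 in summer, and in skin at 63.3 ± 7.20 and 62.5 ± 16.9 CPM (SD, n = 7). The near-equal skin means rested on skin summer 3 and 4, at 77.2 and 94.3 CPM. The other 5 summer skin libraries lay at 50.3 to 58.3 CPM, with a mean of 53.2 ± 3.38 (SD, n = 5), against 53.4 to 75.1 CPM in winter. Without those libraries the skin difference of mean log2(CPM + 1) was -0.24, past the bound of 0.2, in place of -0.05. The winter muscle level lay between those of gills and skin, and the summer muscle level below both. In edgeR with the 4 close summer libraries averaged, the log2 fold change was -0.66 (adjusted p = 0.163). Scaled to library totals alone in edgeR, it was -0.62 (adjusted p = 0.105), and neither passed the threshold of 0.05. Over all 25 alternatives the adjusted p ranged from 1.63e-06 to 0.163, and 23 passed.

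OAV3G000009601, ranked 2, had a larger difference. Its lowest, median and highest values were 17.4, 28.6 and 35.4 CPM in winter muscle and 8.97, 9.77 and 15.6 CPM in summer muscle. Summer fish 1, at 15.6 CPM, was the one that came near the winter values, and the next summer fish was at 11.5 CPM. The means were 28.1 ± 7.05 and 10.8 ± 2.259 CPM (SD, n = 7). In edgeR the log2 fold change came to -1.34 ± 0.19 (SE; adjusted p = 0.00508). Gills held 21.5 ± 2.92 CPM in winter and 21.1 ± 1.82 in summer, and skin 32.8 ± 9.80 and 33.7 ± 9.32 CPM (SD, n = 7). Without skin summer 3 and 4 the summer skin mean was 29.2 ± 5.87 CPM (SD, n = 5), and the skin difference of mean log2(CPM + 1) was -0.13 in place of 0.05. With the 4 close summer libraries averaged the log2 fold change was -1.27 and the adjusted p of edgeR 0.143, which did not pass. Over all 25 alternatives the adjusted p ranged from 1.98e-08 to 0.143, and 24 passed.

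The genes ranked 3 to 5 show that a regular seasonal difference in muscle went with different positions relative to gills and skin. The gene ranked 3 averaged 13.9 ± 1.35 CPM in winter muscle and 9.52 ± 0.951 in summer muscle (SD, n = 7), below its means of 27.2 in gills and 24.7 in skin in both seasons. The gene ranked 4 went from 32.2 ± 8.20 to 15.9 ± 1.88 CPM, also below gills at 74.9 and skin at 51.2 CPM. Its highest winter value, 48.5 CPM in fish 2, lay well above the winter median of 30.5 CPM. The gene ranked 5 averaged 44.7 ± 6.85 CPM in winter muscle, above gills at 35.6 and skin at 39.2 CPM, and 24.9 ± 4.03 CPM in summer muscle, below both. For none of these 3 genes did the seasons overlap in muscle.

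The 5 genes with the largest difference of mean log2(CPM + 1) in muscle were those ranked 85, 10, 71, 41 and 2. The gene ranked 85 averaged 49.2 ± 24.2 CPM in winter and 14.5 ± 5.28 in summer (SD, n = 7), a log2 difference of -1.66. Its winter values ran from 15 CPM in fish 1 to 93.1 in fish 2, and fish 1 lay below 5 of the summer fish. Its lowest value of all, 3.49 CPM, was in the shallow library muscle summer 4. The gene ranked 10 averaged 190 ± 59.98 and 69.4 ± 18.7 CPM, and its lowest winter value of 126 CPM lay above its highest summer value of 103. The gene ranked 71 went from 33.7 ± 20.2 to 11.1 ± 2.00 CPM, and its winter level was spread from 12.8 CPM in fish 4 to 68.8 in fish 3. The gene ranked 41 went from 66.6 ± 25.6 to 26.3 ± 7.24 CPM, with no overlap between 36.7 CPM, the lowest winter fish, and 32.3 CPM, the highest summer fish. Of these 4 genes, those ranked 10 and 41 had no overlap between seasons, and those ranked 85 and 71 did overlap.

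At the other end, the genes ranked 75, 97 and 95 differed least. The gene ranked 75 averaged 44.1 ± 3.81 CPM in winter muscle and 36.4 ± 3.34 in summer (SD, n = 7), the gene ranked 97 16.0 ± 1.85 and 13.1 ± 0.988, and the gene ranked 95 98.9 ± 11.7 and 80.5 ± 5.68. Their adjusted p in edgeR were 0.253, 0.265 and 0.221, so these differences did not pass across all genes although their t was among the 100 largest. By counts, the highest members in winter muscle were those ranked 26, 10 and 34, with 219 ± 62.6, 190 ± 59.98 and 180 ± 39.7 CPM, and in summer 111 ± 15.3, 69.4 ± 18.7 and 111 ± 16.3 CPM. In the genes ranked 26 and 34 the lowest winter library was muscle winter 4, at 132 CPM in both, and fell within the summer range. That library is one of the 4 whose season tag reads otherwise.

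The limit of the set cut through a run of similar genes. The t of the genes ranked 96 to 100 ran from 3.86 to 3.93, with ratios of winter to summer mean from 1.23 to 1.97. For the next 5 genes, just outside, t ran from 3.83 to 3.85 and the ratio from 1.43 to 1.89. The largest t was 7.92 and the median 4.397. Of all 2719 genes that met the conditions, 62.0% had a lower mean in summer muscle, and their median difference of log2(CPM + 1) was -0.12 against -0.69 for the members.

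In edgeR's test of summer against winter muscle, 67 of the 100 members were called lower at an adjusted p under 0.05 and 33 did not pass. Of all 17181 genes tested 4.04% were called lower. The members' median log2 fold change was -0.69, from -1.71 to -0.23, beside -0.01 over all genes tested. The adjusted p of the members had a median of 0.0292 and reached 0.265. When the 4 close summer libraries entered edgeR as 1 averaged sample, it called 0 members and 0 genes in all. At an unadjusted p under 0.05 it then had 80 members lower, and 2790 of 17685 genes tested in either direction. The fit of all libraries had 96 members lower at that limit, beside 2386 of 17181 genes tested. The rule ranked the members by this contrast, so these counts follow in part from the choice. The median log2 fold change of the members was again -0.69. On all libraries, DESeq2 and limma voom called 92 and 64 members. With 1 library left out the count was 42 without muscle winter 6, 44 without muscle summer 3 and 41 without muscle summer 6, and from 45 to 74 without any 1 of the others. Scaled to library totals alone, 30 members were called. Calls lower over all 17181 genes tested were 694 in edgeR, 1418 in DESeq2, 671 in limma voom and 253 with library totals alone. They were 294 of 17346 genes tested without muscle winter 6, 284 of 17278 without muscle summer 3 and 279 of 17348 without muscle summer 6. Without any 1 of the others they ran from 271 to 961, with 17187 to 17386 genes tested.

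The difference between tissues was put as a contrast of the muscle season difference less the mean of those in gills and skin, in 1 fit of all 42 libraries. Of the members 72 were called lower in this contrast, against 5.19% of the 19258 genes tested. Their median was -0.70 on the log2 scale, from -1.71 to -0.17, beside -0.09 over all genes tested. In edgeR OAV3G000004693 had -0.65 ± 0.15 (SE; adjusted p = 0.00625) and OAV3G000009601 had -1.38 ± 0.22 (SE; adjusted p = 0.000326). The rule bounded 2 of the 3 season differences and sorted by the other, so this count follows in part from the choice of members. It was 80 without skin summer 3 and 4, 47 with the 4 close summer libraries averaged, 39 in limma voom and 16 with library totals alone. Over all genes tested 1856, 334, 266 and 310 were called lower in these fits, in the same order, against 999 in the fit above. Scaling to library totals also moved the median of the contrast over all genes from -0.09 to 0.12.

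**Figure D3:**
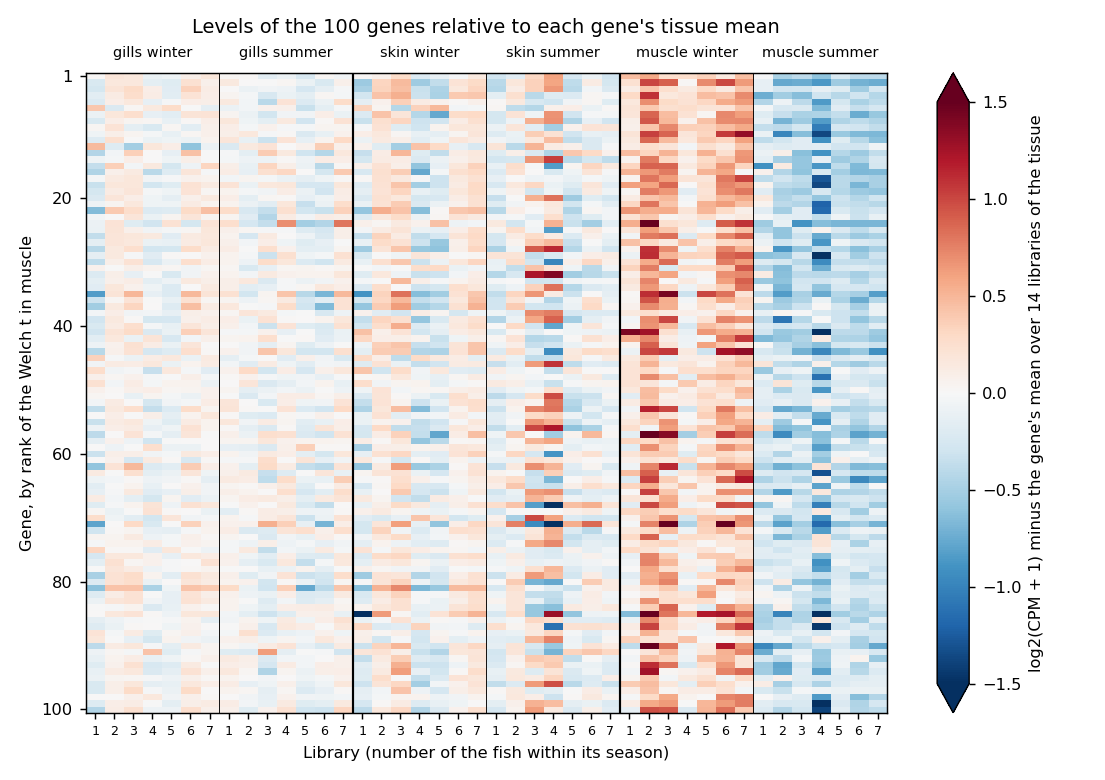
Levels of the 100 genes (rows, in the order of their rank) in the 42 libraries (columns, fish number within each season), as log2(CPM + 1) minus the gene's mean over the 14 libraries of the same tissue. Muscle is mostly red in winter and mostly blue in summer, gills vary little, and skin summer 3 and 4 differ from the other skin libraries gene by gene.

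Within the bounds of the rule, gills and skin showed small differences of either sign. In gills 62 members were lower and 38 higher in summer, with a median difference of log2(CPM + 1) of -0.02 and a range from -0.18 to 0.19. In skin 55 were lower and 45 higher, with a median of -0.03 and a range from -0.20 to 0.20. In skin 24 members lay at 0.15 or beyond in size, near the bound, and in gills 6 did. In each of these tissues edgeR called 0 members and 0 genes in all at an adjusted p under 0.05. At an unadjusted p under 0.05, 4 members were lower in summer gills and none higher, where 14.5% of all genes tested in gills were past that limit. In skin no member was past it, against 11.3% of all genes. Without skin summer 3 and 4 the members were less flat in skin: 75 were lower and 25 higher in summer, with a median of -0.08 and a range from -0.32 to 0.47. The bound of 0.2 was then passed by 21 members, 17 of them lower in summer and 4 higher. Of the 2619 other genes that met the conditions 23.4% passed it, 331 lower and 282 higher. Among all 2619 other genes, 1509 were lower in summer skin and 1110 higher, with a median of -0.03. At an unadjusted p under 0.05 edgeR then had 12 members lower and 2 higher in skin, beside 10.9% of all genes tested, and it called 0 members at an adjusted p under 0.05. With all skin libraries, the muscle difference was more than 5 times the larger of the gill and skin differences in 62 members. The rule bounded or ranked by these differences, so this count follows in part from the choice. It was not made over the other genes.

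Relative to gills and skin, the members' TMM-scaled muscle levels were similar in winter and lower in summer. The TMM factors differed between tissues. They were 0.319 to 0.639 in winter muscle, 1.69 to 1.86 in winter gills and 1.18 to 1.36 in winter skin. As a plain share of counts, the members took 0.209% in winter muscle, 0.713% in winter gills and 0.536% in winter skin. Positions of muscle relative to gills and skin are thus given for TMM-scaled levels only. The ratio of the winter muscle mean to the mean of gills and skin had a median of 1.06 over the genes, and 55 genes were above that mean and 45 below it. For summer muscle the median ratio was 0.609, with 10 genes above and 90 below. In winter muscle 43 members lay above both tissue means, 21 between them and 36 below both. In summer muscle 4 lay above both, 15 between and 81 below both. A total of 26 genes went from above both tissues in winter to below both in summer. Among the 2619 other genes that met the conditions, 44.7% lay below both tissues in winter muscle and 48.7% in summer muscle.

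**Figure D4:**
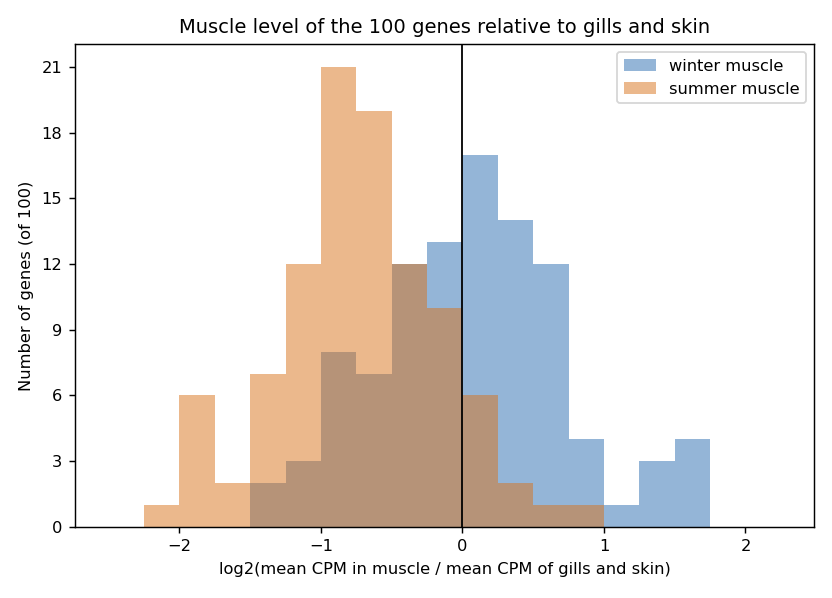
Distribution over the 100 genes of the log2 ratio of the mean TMM-scaled CPM in muscle to that of gills and skin (horizontal axis). Winter muscle is blue and summer muscle orange, as numbers of genes (vertical axis). The winter values centre near 0 with a median of 0.09, and the summer values have a median of -0.72.

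Split by the tissue of their highest mean over both seasons, 43 members were highest in skin, 35 in gills and 22 in muscle. The shares among the other genes that met the conditions were 27.4%, 36.8% and 35.9%. The muscle mean includes the low summer values that selected the members, so this contrast follows in part from the choice. In winter muscle 43 members and 38.1% of the other genes lay above both tissue means, and in summer muscle 4 members and 33.8%. The members with the highest mean in muscle averaged 52.5 CPM in winter muscle at the median and 25.9 in summer, with a median ratio of 1.85, and 20 of these 22 were called lower. Those highest in skin had a median ratio of 1.79, with 30 of 43 called, and those highest in gills a median ratio of 1.49, with 17 of 35 called. Split by winter muscle level, the median ratio was 1.83 in the 31 genes over 50 CPM, 1.65 in the 45 genes from 20 to 50 CPM and 1.52 in the 24 genes under 20 CPM, and 27, 31 and 9 genes were called. The part of counting depth in these called shares was not tested. Winter muscle level is itself the numerator of the ratio, so a higher ratio at a higher winter level follows in part from the split. The other genes were not split in this way. None of the members belonged to the genes with a mean log2(CPM + 1) at least 2 higher in 1 tissue than in both others, which the ratio condition does not allow.

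The levels of the members also varied between the winter fish, and the same 4 fish were the highest in each tissue. Deviations of gills and skin libraries from their group means were not used by the rule. In winter gills the mean of log2(CPM + 1) over the members was 5.08, 5.10, 5.09 and 5.05 in fish 2, 3, 6 and 7, and 4.84, 4.92 and 4.92 in fish 1, 4 and 5. In winter skin it was 5.22, 5.26, 5.16 and 5.24 in the former fish and 4.91, 4.87 and 4.90 in the latter. In winter muscle the corresponding values were 5.39, 5.18, 5.23 and 5.23 against 4.86, 4.78 and 4.98. The same 4 fish thus had the highest values in all 3 tissues, with a gap to the other 3. No such grouping was seen in summer, where fish 1 was the highest in muscle at 4.50, the third highest in gills at 5.04 and the sixth in skin at 4.93. The close and the shallow summer muscle libraries and skin summer 3 and 4 enter these summer orders. Gills and skin of the same fish were compared over the 8067 genes as well. Their deviations from group means had a mean correlation of 0.485 in winter and -0.0118 in summer.

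OAV3G000009601 shows this gene by gene. In winter fish 2, 3, 6 and 7 it stood at 40.3, 44.9, 37.1 and 39.3 CPM in skin, and in fish 1, 4 and 5 at 21.7, 21.8 and 24.5 CPM. In gills the values were 23.8, 23.8, 24.99 and 22.3 CPM against 17.9, 19.1 and 18.5 CPM. In muscle fish 2, 3 and 6 were the highest at 35.4, 32.7 and 34.9 CPM, while fish 7 at 27.2 CPM lay below fish 5 at 28.6 CPM. Both skin and gills separated the fish without overlap for this gene, and muscle did not.

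Over all members, the correlation of a gene's level between gills and skin across the 7 winter fish had a median r of 0.72 and was above 0 in 92 of 100 genes. For skin and muscle the median r was 0.49, and for gills and muscle 0.40. Among the 2619 other genes that met the conditions the medians were 0.50, 0.27 and 0.24. Across the 7 summer fish the members' medians were -0.02, -0.16 and 0.03 in the same order of pairs, and those of the other genes -0.11, 0.18 and -0.01. For skin and muscle in summer the medians had opposite signs, and r was above 0 in 40 members and in 59.8% of the other genes. Skin summer 3 and 4 enter these summer values for skin, and without them 5 fish remain, for which no r is given. These are descriptions, since all genes share the same 7 fish and libraries, and no p is given. Within winter groups the members also went up and down together, with a mean pairwise r between genes of 0.317 (gills), 0.373 (skin) and 0.392 (muscle). Among the other genes these were 0.0339, 0.0182 and 0.0153. In summer these values were 0.221, 0.0824 and 0.152 for the members and 0.0249, 0.00404 and 0.0760 for the other genes. The members were all chosen for lower summer values in these muscle libraries, while the other genes held both directions. The higher pairwise r of the members may follow in part from that choice, which was not tested.

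**Figure D5:**
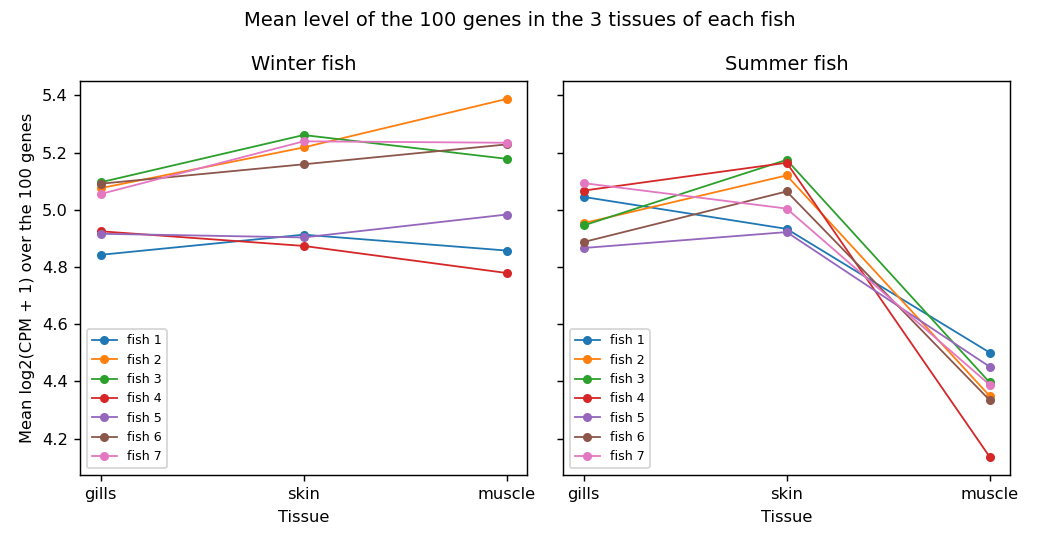
Mean log2(CPM + 1) of the 100 genes (vertical axis) in gills, skin and muscle (horizontal axis), with 1 line for each of the 7 winter fish (left) and 7 summer fish (right). Winter fish 2, 3, 6 and 7 lie above fish 1, 4 and 5 in each tissue, and all summer fish are lowest in muscle.

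Several measures of the libraries moved with this order, and their part in it was not tested. The other 2619 genes had their 4 highest winter means in the same 4 fish in each tissue, over a narrow range: 4.45 to 4.52 in gills, 4.50 to 4.53 in skin and 4.38 to 4.52 in muscle. Some of these libraries were close to each other, with a deviation of the log2 count ratio of 0.0746 between gills winter 2 and 7, 0.0767 between gills winter 3 and 6, and 0.111 to 0.144 among skin winter 2, 6 and 7. In winter skin, genes enriched in muscle took 17.8%, 14.1%, 18.2% and 17.4% of the counts in fish 2, 3, 6 and 7 and 22.6%, 26.0% and 26.1% in fish 1, 4 and 5. Genes enriched in gills took 0.672% to 0.725% of the winter skin counts in the former fish and 0.252% to 0.385% in the latter. Genes enriched in skin took 0.623% to 0.712% of the winter gill counts in the former and 0.382% to 0.562% in the latter. The TMM factors of winter muscle were 0.422, 0.360, 0.369 and 0.319 in the former and 0.621, 0.635 and 0.639 in the latter. As a plain share of all counts, with no TMM factor, the members kept the order in gills (0.741% to 0.754% against 0.648% to 0.681%) and in skin (0.577% to 0.651% against 0.414% to 0.464%). In muscle they did not: fish 3, 6 and 7 had the lowest winter shares, at 0.171%, 0.182% and 0.164%, and fish 5 the highest at 0.256%.

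Plain shares were also taken for the seasonal difference. The share of counts on the members was 0.209% ± 0.0359 for winter muscle and 0.134% ± 0.0114 for summer muscle (SD, n = 7). The lowest winter library, at 0.164%, was above the highest summer library, at 0.152%, so the groups did not overlap without TMM factors either. Since the members were chosen for this contrast in the same libraries, the separation follows in part from the choice. All 100 members had a lower mean share in summer, and in 22 of them no library overlapped. These counts were not made over all genes on plain shares, so nothing is read from them. The TMM factors of muscle ran from 0.319 to 0.639 in winter and from 0.483 to 0.660 in summer. Among muscle libraries, the share on genes enriched in muscle was 64.7% ± 4.24 in winter and 62.3% ± 3.22 in summer (SD, n = 7). For genes enriched in gills it was 0.0997% ± 0.0591 and 0.0623% ± 0.0214, and for genes enriched in skin 0.0404% ± 0.0117 and 0.0446% ± 0.0218. The part of these shares in the difference was not tested. They rest on 445, 446 and 95 genes found in the same libraries.

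Single libraries set where each gene reached its extremes in muscle. The lowest value of 56 members was in muscle summer 4, the shallowest library, and that of 18 in muscle summer 2. The highest value of 44 members was in muscle winter 2 and that of 27 in muscle winter 7. That lows fell in summer and highs in winter follows from the choice of members. These counts were not made over the other genes that met the conditions. The mean log2(CPM + 1) of those other genes was also lowest in muscle summer 4, at 4.02. In the other muscle libraries it was 4.38 to 4.52. Without muscle summer 4 the members' median log2 fold change was -0.68 and 73 were called lower, and without muscle winter 2 these were -0.65 and 45. Of all genes tested, 961 and 290 were called lower in these fits. Muscle winter 4, whose tag reads summer, had the lowest winter mean over the members, at 4.78, and lay above every summer library. The members were ranked with that library counted as winter, so its place follows in part from the choice. It cannot tell whether the title or the tag is right. With that library counted as summer, the median log2 fold change was -0.72 and 68 members were called, beside -0.76 and 74 with it left out. Calls lower over all genes tested were then 801 and 936. The SD of log2(CPM + 1) between muscle libraries was larger in winter than in summer in 64 members. This count was not made over the other genes. The close summer muscle libraries enter the summer SD, and their part in the difference was not tested. The median SD of log2(CPM + 1) over the members was 0.295 in winter muscle and 0.243 in summer muscle. For the other genes that met the conditions it was 0.348 and 0.306, so it was also lower in summer.

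Which genes make up the set depended on the details of the ranking. With RLE in place of TMM scaling 87 of the 100 were again among the first 100. With the 4 close summer libraries averaged 68 were, and 86 were among the first 200. Leaving out 1 muscle library kept from 69 (without muscle summer 4) to 93 (without muscle summer 7), and each time at least 99 were among the first 200. Ranking by the p of edgeR kept 65, and ranking by the size of the difference 38. With the season of the 4 conflicting libraries taken from the tag 52 were kept. TMM scaling within each tissue kept 44 and left 56 members outside a condition of the rule. With library totals alone 84 failed a condition and 12 were kept. Without skin summer 3 and 4, 5491 genes met the conditions in place of 2719, 79 of the members among them, and 21 members were kept among the first 100 and 51 among the first 200.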

How the data were processed

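RNA from gills, skin and muscle of 14 fish was measured as unstranded poly-A RNA-seq with paired 150-base reads, as the labels' protocols state. Values are whole-number counts per gene, not normalized, as deposited by the authors for 21024 genes and 42 libraries. Per the submitters' processing notes, the tools included HISAT2 2.2.1, SAMtools 1.10, Cufflinks, Trim Galore 0.6.6 and FastQC. Genome build, annotation and counting program: not given in the sources used here. As strand was not kept, reads of a gene and of an overlapping or antisense partner cannot be separated, and genes with near-identical copies are uncertain. Of the counts from 1 to 10, 75.8% were even, so a fragment may have been counted by both of its reads and the totals would then overstate the depth.

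Counts were scaled with TMM over all libraries, and levels are log2(CPM + 1). Tests used edgeR 4.0.16 (robust quasi-likelihood, filterByExpr, Benjamini-Hochberg adjustment over all genes tested, threshold 0.05, two-sided) in R 4.3.3, with DESeq2 1.42.0 and limma 3.58.1 as alternatives. The code was tested on simulated data. Total counts per library set the precision of each value. Season followed the sample titles. The members and lists were chosen with earlier results of these data known. Genes were named by a rule: identifiers for ranks 1 and 2, and by rank alone ranks 3 to 5, the 5 largest and 3 smallest differences, the 3 highest winter levels and the limit of the set.

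The labels give the 3 tissues of a fish the same individual number, and the pairing of tissues rests on them. In winter, 3 of 7 gill libraries correlated best with skin of their own number. For gills with muscle and skin with muscle it was 2 of 7 each. In summer these counts were 1, 2 and 2 of 7. Deviations from group means over 8067 genes had a mean correlation between tissues of the same fish of 0.485 (gills and skin), 0.176 (gills and muscle) and 0.269 (skin and muscle) in winter, and -0.0118, 0.0569 and 0.0758 in summer. The alternatives were other scaling, filters and tools, replicate blocks, the season tags, averaging of close libraries, leaving out single muscle libraries and changes to the ranking rule. Scaling to library totals alone and leaving out skin summer 3 and 4 were added after seeing the data.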

Additional observations from a re-analysis of the deposited data

Results flagged for a closer look

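OAV3G000009601 had 15.6 CPM in muscle summer 1, a value far from the other summer muscle libraries, which lay at 8.97 to 11.5 CPM. The gap to the nearest library was 0.623 of the range of the group, above Dixon's critical value for 7 samples. It was the 1 such value among 24 group values examined, and chance marks about 1 in 20 groups. Muscle summer 1 also had the highest summer mean over the 100 genes, at 4.50 on the log2(CPM + 1) scale.

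For both named genes the seasonal difference in muscle differed from the mean of those in gills and skin in edgeR's test of that contrast. It was -0.65 on the log2 scale for OAV3G000004693 (adjusted p = 0.00625, edgeR) and -1.38 for OAV3G000009601 (adjusted p = 0.000326, edgeR). The rule chose the genes for this pattern.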

How the results depend on the processing

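The median log2 fold change of the 100 genes in muscle, -0.69, kept its direction under all 25 alternatives, from -0.76 to -0.57. Since the genes were chosen for this direction in the same libraries, the kept sign follows from the choice. The number called lower in summer muscle, 67, was 0 with the close summer libraries averaged and 30 with library totals alone, and ran from 41 to 74 with 1 muscle library left out. The number called in the season by tissue contrast, 72, was 47, 16 and, in limma voom, 39, and ran from 58 to 77 with 1 muscle library left out. With the individual number as a replicate block 38 members were called in muscle. Same-numbered winter and summer fish are different fish, whose deviations had a mean correlation of 0.0541 (-0.203 to 0.246), and 2 of 7 correlated best with their own number. With the fish as a replicate block over its tissues the contrast called 70 members, beside 876 of 19619 genes tested called lower. Of the first 100 of the ranking, 21 were kept without skin summer 3 and 4, 12 with library totals alone, 52 with the season tags, 44 with TMM within each tissue, 38 when ranked by the difference, 65 when ranked by the p of edgeR, 42 with a flatness limit of 0.1 and 44 with 0.4. With 1 muscle library left out 69 to 93 were kept. A condition of the rule was no longer met by 84 members with library totals alone, 56 with TMM within each tissue and 58 with a flatness limit of 0.1. With a limit of 0.4, 0 members failed a condition and 98 were among the first 200. Otherwise the cause of these changes was not tested. Over all genes, muscle calls lower and higher were 694 and 406 in edgeR, 1418 and 888 in DESeq2, and 0 and 0 with the close libraries averaged. Library totals alone gave 253 and 191, and the individual number as a block 443 and 298. Leaving out 1 muscle library gave from 271 to 961 calls lower. In the season by tissue contrast the calls lower and higher were 999 and 139, and 1856 and 565 without skin summer 3 and 4. With 1 muscle library left out, that contrast had from 504 to 1444 calls lower. Depth limits muscle summer 4 most, where a member had as few as 12 counts.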
